A study of Mus musculus with 13 samples.

Results

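The genes described here encode 10 enzymes that make serine, carry its one-carbon unit into folate, or make proline and asparagine: Phgdh, Psat1, Psph, Shmt1, Shmt2, Mthfd2, Mthfd1l, Aldh18a1, Pycr1 and Asns. They were listed by symbol from their places in these pathways, and the list was drawn up with earlier results of these data known, so that the count of those that changed is not independent evidence. Each symbol matched 1 Ensembl gene, so that 10 of 10 were found among the 16382 genes of the deposited tables, and all 10 passed the filter on low counts that left 13142 genes for testing.

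The libraries came from C2C12, a mouse myoblast line whose cells fuse into multinucleated myotubes in low serum. All cultures were wild type and were differentiated alike up to day 8. They then received vehicle, DMSO (CON, 6 libraries), or 10 μM palmitoylethanolamide, a fatty acid amide made by many tissues, in the same medium (PEA, 6 libraries). RNA was taken 24 h later, enriched for polyadenylated RNA and sequenced. The wells were duplicates within 3 repeats of the experiment. The labels do not say which libraries share a repeat, so each p-value measures the spread between libraries, part of which may be technical, and may be too small. C2C12 is a single line, and some cells in such cultures stay unfused.

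Serine is made from the glycolytic intermediate 3-phosphoglycerate in a short chain of reactions: PHGDH oxidizes it, PSAT1 adds an amino group and PSPH removes the phosphate. Serine hydroxymethyltransferases, SHMT1 in the cytosol and SHMT2 in mitochondria, then split serine into glycine and a one-carbon unit on tetrahydrofolate. In mitochondria MTHFD2 and MTHFD1L carry that unit to formate, which the cytosol uses for purines, thymidylate and methionine. ALDH18A1 and PYCR1 build proline from glutamate, and ASNS makes asparagine from aspartate. Many of these genes are known targets of ATF4, the transcription factor translated when amino acids run short or the endoplasmic reticulum is stressed, and MYC acts on several of them in growing cells.

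In PEA, 8 of the 10 transcripts were higher than in CON and none was lower. In edgeR's quasi-likelihood test, adjusted by Benjamini-Hochberg over all 13142 genes at a threshold of 0.05, Phgdh, Psat1, Psph, Shmt2, Mthfd2, Aldh18a1, Pycr1 and Asns were upregulated, by between 1.19-fold for Psat1 and 1.60-fold for Aldh18a1. Of all genes tested, 829 (6.31%) were upregulated by the same rule. The median log2 fold change over the 10 genes was 0.49, and over all genes tested it was 0.01. Shmt1 and Mthfd1l did not pass. The 8 cover the 3 steps from 3-phosphoglycerate to serine, the mitochondrial but not the cytosolic serine hydroxymethyltransferase gene, 1 of the mitochondrial folate enzymes listed, both proline enzymes listed and asparagine synthetase.

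**Figure D1:**
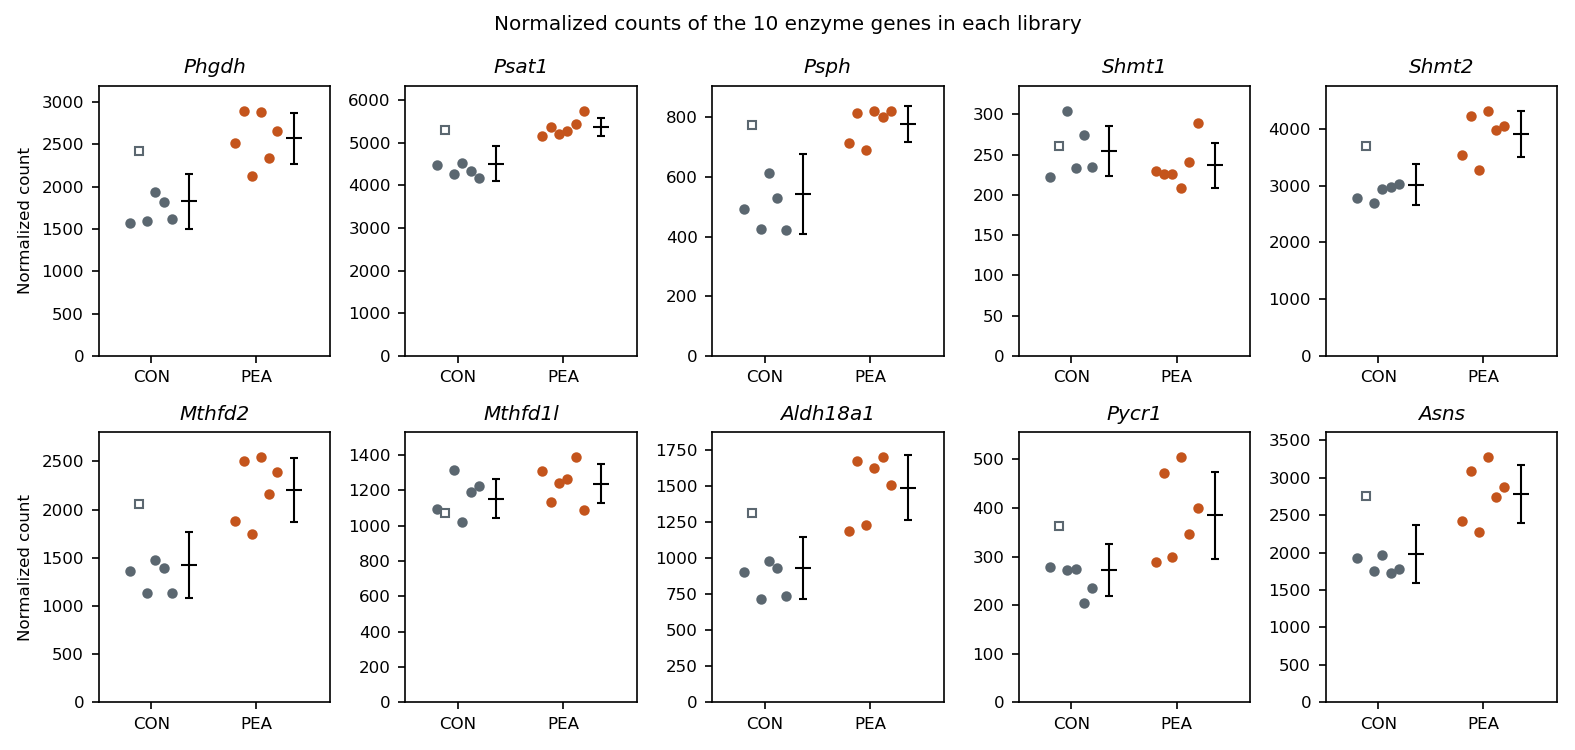
Normalized counts (deposited estimated counts divided by 1 factor per library, linear axis from 0) of the 10 genes in the 6 CON and 6 PEA libraries; each point is a library, the open square is CON replicate 2, and the bar beside each group is the mean ± SD (n = 6). In the 8 genes that were upregulated, every PEA point lies above the other 5 CON points, and CON replicate 2 lies among the PEA points.

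The values below are normalized counts, which are comparable between libraries for 1 gene but not between genes of different length. Libraries held between 12354845 and 50397444 estimated counts, and the 10 genes had between 130 and 11661 estimated counts in a library, with the lowest in Pycr1 and the highest in Psat1. CON replicate 1 was the deepest library, and it held the highest CON value of none of the 10 genes.

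CON replicate 2 stood apart from the other CON libraries in these genes. It had the highest CON value of 8 of the 10, and they were the 8 that were upregulated. With it, no gene of the 10 separated the groups completely, against 4.34% of all genes tested whose 2 sets of 6 values did not overlap in either direction. Without it, in a reading chosen after the data had been seen, all 6 PEA values lay above all 5 CON values for 8 of the 10 genes, against 5.52% of all genes tested, and edgeR called 8 of the 10 higher, with a median log2 fold change of 0.60. Leaving that library out raised the calls over all genes too: that fit called 9.40% of the genes tested higher and 16.8% in either direction, against 6.31% and 11.0% with all libraries.

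The 3 genes of serine synthesis rose together. Phgdh (ENSMUSG00000053398, minus strand, GRCm39 chr3:98220484-98255047), the first and committed step, had a lowest, median and highest normalized count of 1575, 1717 and 2417 in CON and of 2126, 2583 and 2897 in PEA. Only CON replicate 2 reached into the PEA range. The means were 1825 ± 323 and 2568 ± 305 (SD, n = 6 each), which edgeR fitted as 0.50 on the log2 scale (SE 0.10, adjusted p = 0.00621), or 1.41-fold.

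Psat1 (ENSMUSG00000024640, minus strand, chr19:15882039-15924701), which transfers the amino group from glutamate, ran from 4172 through a median of 4401 to 5292 in CON and from 5148 through 5316 to 5752 in PEA. The PEA libraries lay close together, and the CON libraries other than replicate 2 did not exceed 4517. This was the smallest change of the 8, at 0.25 on the log2 scale (SE 0.05, adjusted p = 0.00917 in edgeR).

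Psph (ENSMUSG00000029446, minus strand, chr5:129841925-129864513), the phosphatase that releases serine, was at 423, 511 and 774 in CON (lowest, median, highest) and at 690, 806 and 822 in PEA. CON replicate 2 exceeded 2 of the 6 PEA libraries, and no other CON library reached any of them. Psph was upregulated 1.44-fold (log2 fold change 0.52, 95% confidence interval 0.27 to 0.78, adjusted p = 0.0124 in edgeR).

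The serine hydroxymethyltransferases differed in their response. Shmt2 (ENSMUSG00000025403, minus strand, chr10:127352266-127358323), the mitochondrial enzyme, was at 2692, 2953 and 3697 in CON and at 3280, 4018 and 4321 in PEA (lowest, median, highest). It was upregulated 1.30-fold (log2 fold change 0.37, SE 0.08, adjusted p = 0.00769 in edgeR). Shmt1 (ENSMUSG00000020534, minus strand, chr11:60661185-60708167), the cytosolic enzyme, was at 222, 248 and 305 in CON and at 209, 228 and 289 in PEA. Its groups overlapped throughout, and its log2 fold change was -0.10 with a 95% confidence interval of -0.31 to 0.12 and an adjusted p of 0.579 in edgeR. The Shmt1 locus overlaps Top3a on its strand and Smcr8 on the other, so reads there may be shared.

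The ratio of Shmt2 to Shmt1 within a library does not depend on how libraries are scaled, and it tests the difference itself. Since the transcripts differ in length, the height of such a ratio of estimated counts is not a ratio of molecules, and only its change between groups is read here. It was 11.96 ± 1.87 in CON and 16.6 ± 2.56 in PEA (SD, n = 6 each). CON ran from 8.83 to 14.2 and PEA up to 20.6, and the groups overlapped only in that PEA replicate 6 was just below CON replicate 2. The ratio was 1.39 times as high in PEA (two-sided exact permutation test over 924 assignments, p = 0.00433, adjusted over the 4 ratios tested p = 0.0130).

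Among the mitochondrial folate enzymes, Mthfd2 (ENSMUSG00000005667, minus strand, chr6:83282673-83302890), a dehydrogenase and cyclohydrolase best known from embryonic and proliferating cells, had the second largest change of the 10. It was at 1130, 1377 and 2060 in CON and at 1747, 2276 and 2544 in PEA (lowest, median, highest). PEA replicates 1 and 3 were the lowest PEA libraries here and in several of the other genes. It rose 1.55-fold (log2 fold change 0.63, SE 0.13, adjusted p = 0.00670 in edgeR).

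Mthfd2l, the gene for the related mitochondrial dehydrogenase found in adult tissues, did not rise with it: its mean normalized count was 346 ± 37.9 in CON and 297 ± 45.5 in PEA (SD, n = 6 each; log2 fold change -0.22, SE 0.10, adjusted p = 0.182 in edgeR). The ratio of Mthfd2 to Mthfd2l was 4.25 ± 1.61 in CON and 7.64 ± 1.97 in PEA, 1.83 times as high in PEA (exact permutation test, p = 0.0130, adjusted p = 0.0173). Its values ran from 3.02 to 7.45 in CON and from 4.88 to 10.1 in PEA, and 5 of the 6 CON libraries were at 3.91 or below.

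Mthfd1l (ENSMUSG00000040675, plus strand, chr10:3922870-4117081), the mitochondrial 10-formyltetrahydrofolate synthetase that releases formate, was at 1022, 1141 and 1312 in CON and at 1086, 1252 and 1388 in PEA. The groups overlapped over most of their range, and the log2 fold change was 0.10 with a 95% confidence interval of -0.04 to 0.25 (adjusted p = 0.360 in edgeR). Mthfd1, the cytosolic enzyme that carries the same synthetase activity, was at 1573 ± 123 in CON and 1615 ± 46.1 in PEA (SD, n = 6 each; log2 fold change 0.04, adjusted p = 0.668 in edgeR). The ratio of Mthfd1l to Mthfd1 was 0.734 ± 0.0656 in CON and 0.767 ± 0.0862 in PEA, a difference within the spread between libraries (exact permutation test, p = 0.470, adjusted p = 0.470).

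**Figure D2:**
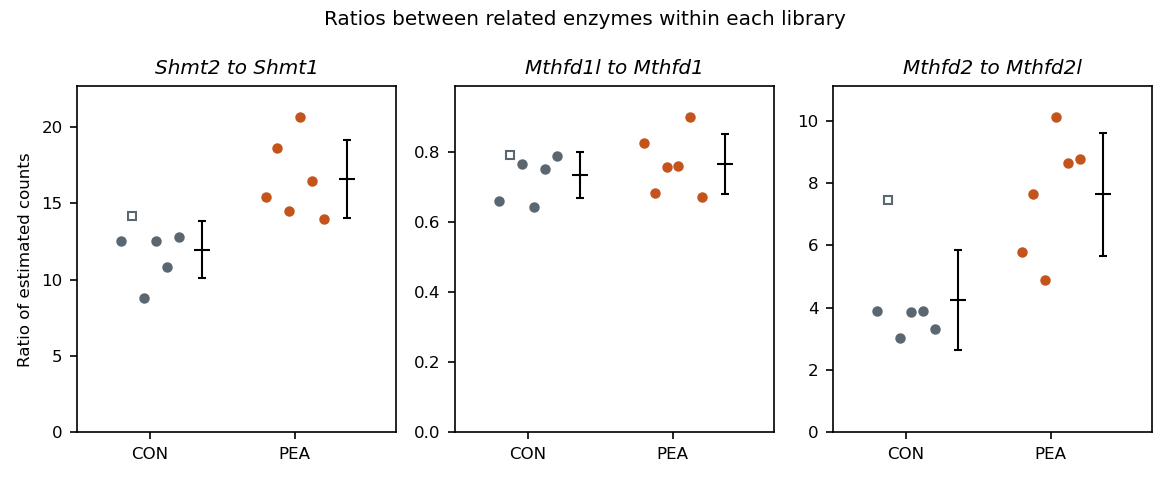
Ratio of the estimated counts of related enzymes within each library (linear axes from 0), for 6 CON and 6 PEA libraries; points are libraries, the open square is CON replicate 2, and bars are the mean ± SD (n = 6). Shmt2 to Shmt1 and Mthfd2 to Mthfd2l were higher in PEA, 1.39 and 1.83 times, and Mthfd1l to Mthfd1 overlapped between the groups.

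Both proline enzymes were upregulated. Aldh18a1 (ENSMUSG00000025007, minus strand, chr19:40538698-40576949), which activates and reduces glutamate in the first steps to proline, had the largest change of the 10. It was at 714, 916 and 1312 in CON and at 1186, 1567 and 1698 in PEA (lowest, median, highest), with means of 929 ± 216 and 1486 ± 227 (SD, n = 6 each). Only PEA replicates 1 and 3 were below CON replicate 2. edgeR fitted a log2 fold change of 0.68 (95% confidence interval 0.41 to 0.96, adjusted p = 0.00449).

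Pycr1 (ENSMUSG00000025140, minus strand, chr11:120526484-120539269), the mitochondrial reductase that completes proline, was at 204, 273 and 364 in CON and at 288, 373 and 505 in PEA. It was the least certain of the 8. Its log2 fold change of 0.50 (SE 0.15) had an adjusted p of 0.0407 in edgeR, and the call was lost in 9 of the 12 fits that left out 1 library, those without CON replicate 1, 3, 4, 5 or 6 or PEA replicate 2, 4, 5 or 6 (adjusted p 0.0547 to 0.0952). The Pycr1 locus also contains Myadml2 on its strand over 2128 bases, so reads there may be shared.

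Pycr3, the gene for a reductase of the same step whose product acts in the cytosol, was at 801 ± 44.5 in CON and 826 ± 38.1 in PEA (SD, n = 6 each; adjusted p = 0.629 in edgeR).

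Asns (ENSMUSG00000029752, minus strand, chr6:7671667-7728461), asparagine synthetase, was at 1728, 1851 and 2750 in CON and at 2276, 2812 and 3275 in PEA (lowest, median, highest). CON replicate 2 exceeded 3 of the 6 PEA libraries, and the other 5 CON libraries did not exceed 1963. Asns rose 1.40-fold (log2 fold change 0.49, SE 0.11, adjusted p = 0.0104 in edgeR).

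**Figure D3:**
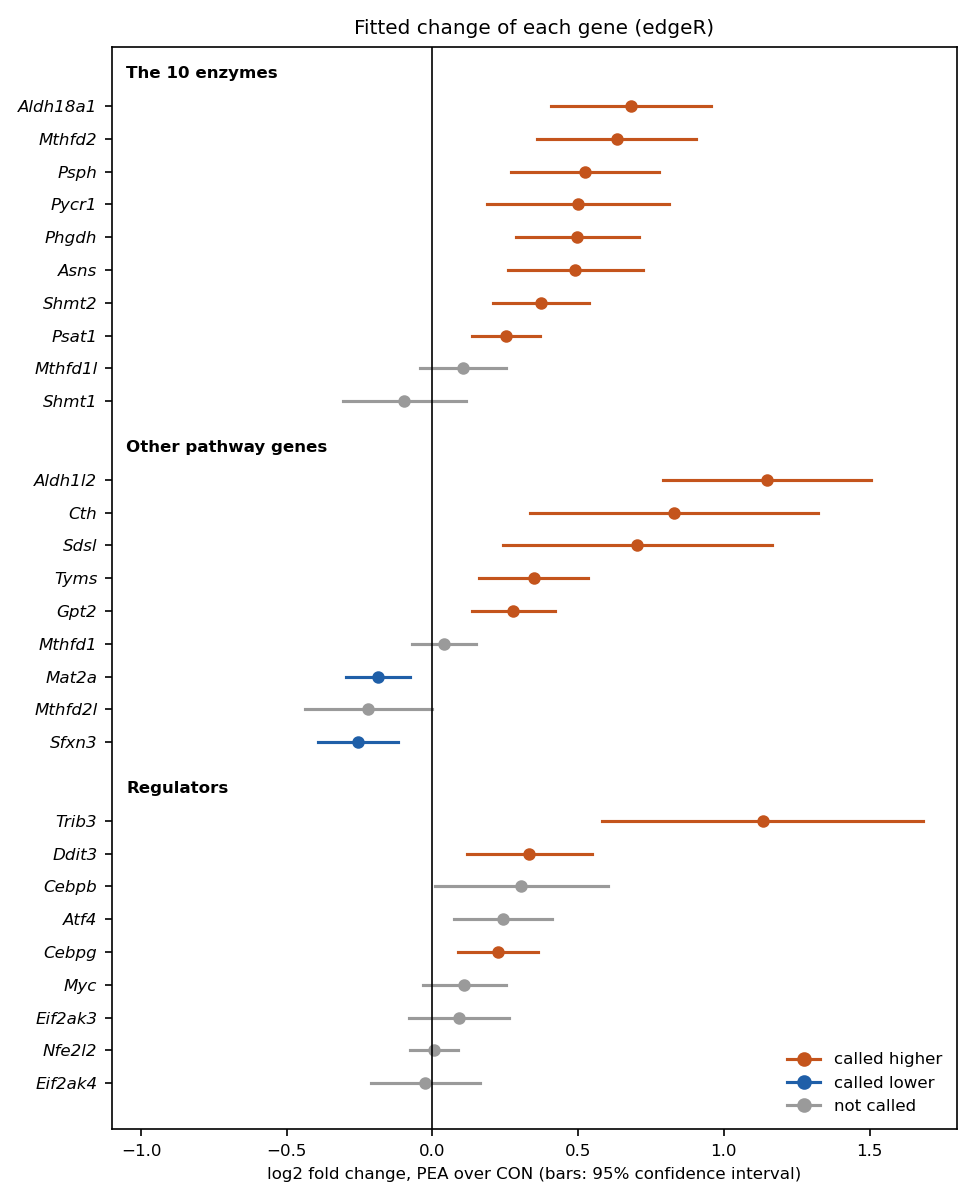
Fitted log2 fold change, PEA over CON, with its 95% confidence interval (edgeR, 6 libraries a group), for the 10 enzymes, for Mthfd1, Mthfd2l and 7 other pathway genes that passed the test, and for the 9 regulators. Colour marks genes called higher, called lower or not called at an adjusted p of 0.05. Aldh18a1 (0.68) and Mthfd2 (0.63) lead the 10 enzymes, Aldh1l2 (1.15) and Trib3 (1.13) lie beyond them, and Sfxn3 (-0.26) and Mat2a (-0.19) lie on the other side of 0.

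Levels can be compared between the genes only per length. As CPM (estimated counts scaled to a common library total) per kilobase of the canonical transcript, Psat1 was the highest of the 10 in CON at 89.8 ± 8.05, followed by Shmt2 at 68.5 ± 8.06, Phgdh at 50.3 ± 8.90, Mthfd2 at 35.4 ± 8.48, Asns at 21.1 ± 4.13, Mthfd1l at 16.2 ± 1.53, Aldh18a1 at 13.7 ± 3.19, Psph at 11.7 ± 2.87, Pycr1 at 7.52 ± 1.48 and Shmt1 at 4.64 ± 0.563 (SD, n = 6 each). The CON ranges of all neighbours in this order overlapped except those of Pycr1 and Shmt1. In PEA the order differed in 1 place, with Aldh18a1 at 22.0 ± 3.40 above Mthfd1l at 17.4 ± 1.56. Mitochondrial Shmt2 was far above cytosolic Shmt1 on this scale in both groups, with Shmt2 at 88.7 ± 9.33 and Shmt1 at 4.32 ± 0.506 in PEA.

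The 8 upregulated genes also varied together within the groups. After the group means had been subtracted from log2 CPM, Pearson's r between each pair of the 8 lay between 0.59 and 0.95, with a median of 0.84 over 28 pairs and 12 libraries. Shmt1 did not follow them (r from -0.09 to 0.23 with the 8), and Mthfd1l ran against them (r from -0.60 to -0.35). These are descriptions over libraries that include duplicate wells of the same repeats and differ in depth. CON replicate 2 lay at the high end of its group and PEA replicates 1 and 3 at the low end of theirs.

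**Figure D4:**
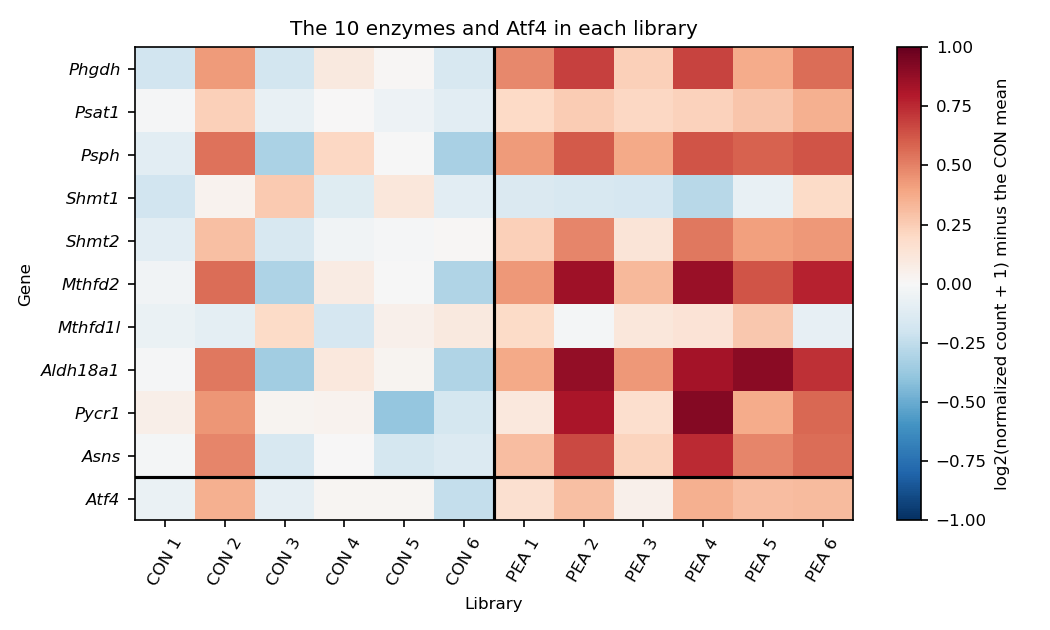
Log2(normalized count + 1) minus the CON mean of the gene, by colour, for the 10 enzymes and Atf4 (rows) in 12 libraries (columns); red is above and blue below the CON mean. CON replicate 2 is red for the 8 upregulated genes and Atf4, PEA replicates 1 and 3 are the palest PEA libraries, and Shmt1 and Mthfd1l do not share the pattern.

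Of the genes outside the 10, the 5 whose variation within groups was most like the mean of the 10 over the 12 libraries were Atf4 (Pearson's r 0.97), Hfe (0.96), Ccl8 (0.96), 2410006H16Rik (0.96) and Lonp1 (0.96). 2410006H16Rik and Lonp1 were also upregulated, with log2 fold changes of 0.66 and 0.32 (adjusted p = 0.00447 and 0.00822 in edgeR). Hfe and Ccl8 had log2 fold changes of 0.45 and 0.52 and did not pass (adjusted p = 0.296 and 0.108 in edgeR).

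Of 9 regulators listed (Atf4, Cebpb, Cebpg, Ddit3, Trib3, Myc, Nfe2l2, Eif2ak3 and Eif2ak4), 3 were upregulated and none was downregulated, with a median log2 fold change of 0.23, where 11.0% of all genes tested were called in either direction. Trib3, a pseudokinase induced by ATF4 that restrains it, was at 241, 366 and 967 in CON and at 745, 1093 and 1140 in PEA (lowest, median, highest), 2.19 times as high in PEA (adjusted p = 0.0125 in edgeR). CON replicate 2 held the highest CON value here too, above PEA replicates 1 and 3.

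Ddit3, encoding the stress factor CHOP, and Cebpg, a dimer partner of ATF4, had log2 fold changes of 0.33 (SE 0.10, adjusted p = 0.0454 in edgeR) and 0.23 (SE 0.07, adjusted p = 0.0359 in edgeR). Both calls were lost in 9 of the 12 fits that left out 1 library: for Ddit3 without CON replicate 1, 3, 4, 5 or 6 or PEA replicate 2, 4, 5 or 6 (adjusted p 0.0681 to 0.112), and for Cebpg without CON replicate 1, 4, 5 or 6 or PEA replicate 2, 3, 4, 5 or 6 (0.0512 to 0.0813).

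Atf4 itself was at 5255, 6083 and 7893 in CON and at 6424, 7628 and 7924 in PEA (lowest, median, highest). Its groups overlapped through CON replicate 2, and its log2 fold change of 0.24 (SE 0.08) had an adjusted p of 0.0585 in edgeR. It passed in 4 of the 10 other fits that kept all libraries and took no covariate, DESeq2 among them (adjusted p 0.0261 to 0.0654). Without CON replicate 2 its log2 fold change was 0.32 and passed the test, with an adjusted p of 0.00219 in edgeR. Since ATF4 is controlled largely at translation, transcript levels do not measure its activity. Myc was at 1129, 1341 and 1568 in CON and at 1308, 1457 and 1548 in PEA, with a log2 fold change of 0.11 (SE 0.07) and an adjusted p of 0.313 in edgeR.

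Promoters of the 10 genes were searched for the motifs of these factors, with the letters TGATGNAA for the element bound by CEBP and ATF4 dimers, TGATGCAA as its form with C at the open position (every such match is also a TGATGNAA match), and CACGTG for the E-box bound by MYC and others, on both strands. RefSeq promoter windows of 300 bases (table build GRCm38.p6), from 250 bases before the start to 50 after it, were found for 10 of 10 genes, 11 windows in all, and were placed on GRCm39 by exact match. TGATGNAA occurred in 2 of the 11 windows, those of Asns and Pycr1, and in 3.97% of 32851 mouse promoter windows. TGATGCAA occurred in the Pycr1 window alone of the 11 and in 0.895% of all windows, and CACGTG in the Aldh18a1 window alone of the 11 and in 7.15% of all windows. The stretches that hold them are printed here, since these are the 3 enzymes with a match, with the motif in capitals and positions counted from the base before the start as -1:
Asns, chr6:7693214-7693243, minus strand, bases -34 to -5: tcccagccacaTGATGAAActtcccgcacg
Pycr1, chr11:120534599-120534694, minus strand, bases -120 to -25: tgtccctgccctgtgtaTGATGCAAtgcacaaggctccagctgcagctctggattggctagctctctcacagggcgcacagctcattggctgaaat
Aldh18a1, chr19:40576949-40576978, minus strand, bases -71 to -42: ggagggggccgcCACGTGgagcgtgggcgc

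The Asns and Aldh18a1 stretches lie wholly within exons of the GENCODE annotation, which holds further transcripts there, and the Pycr1 stretch lies in none. The other 7 genes had none of these letters in their windows, 5 of them upregulated ones. A match is a run of letters and was not tested for binding.

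Of 57 other genes listed for serine and glycine, folate, methionine and transsulfuration, proline and ornithine, and asparagine, aspartate, glutamate and alanine, 52 were in the tables and 48 could be tested; 5 were upregulated, 3 downregulated and 40 passed in neither direction, with a median log2 fold change of 0.01. The 8 called were 16.7% of the 48, where 11.0% of all genes tested were called. The other 4 in the tables, Sds and Gnmt among them, were too low to test, and Ftcd, Bhmt, Bhmt2, Prodh2 and Aspg were not analysed here.

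Aldh1l2, the mitochondrial 10-formyltetrahydrofolate dehydrogenase, had the largest change of the 48. It was at 321, 385 and 693 in CON and at 692, 1072 and 1126 in PEA (lowest, median, highest), and only CON replicate 2 and PEA replicate 3 met. Its log2 fold change was 1.15 (SE 0.17), 2.22-fold, with an adjusted p of 0.000850 in edgeR, and it stayed called in all 12 fits that left out 1 library. Aldh1l1, its cytosolic counterpart, was at 71.9 ± 14.1 and 74.1 ± 11.97 (adjusted p = 0.903 in edgeR).

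Of the other folate genes, Tyms, thymidylate synthase, was upregulated (log2 fold change 0.35, SE 0.09, adjusted p = 0.0212 in edgeR; 0.0549 without PEA replicate 6). Sdsl, a serine dehydratase-like gene at low counts, and Cth, the last enzyme of transsulfuration to cysteine, had log2 fold changes of 0.70 and 0.83 (adjusted p = 0.0480 and 0.0321 in edgeR). Gpt2, the mitochondrial alanine transaminase, rose by 0.28 on the log2 scale (SE 0.07, adjusted p = 0.0167 in edgeR). The Sdsl call was lost in 9 of the 12 fits that left out 1 library (without CON replicate 1, 3, 5 or 6 or PEA replicate 2, 3, 4, 5 or 6; adjusted p 0.0723 to 0.0985), and the Cth call in 6 (without CON replicate 3, 5 or 6 or PEA replicate 4, 5 or 6; 0.0543 to 0.0787). With all libraries kept, Sdsl also did not pass in edgeR with no filter on low counts (adjusted p = 0.0584) or thinned to the smallest total (0.0955).

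The downregulated genes included Sfxn3, a mitochondrial carrier of the sideroflexin family that transports serine, and Mat2a, which makes S-adenosylmethionine. Sfxn3 was at 3080 ± 358 in CON and 2575 ± 87.4 in PEA (SD, n = 6 each; log2 fold change -0.26, SE 0.07, adjusted p = 0.0202 in edgeR; 0.0528 without CON replicate 6 and 0.0524 without PEA replicate 5). Mat2a was at 3968 ± 315 and 3484 ± 149 (log2 fold change -0.19, SE 0.05, adjusted p = 0.0319 in edgeR), and its call was lost in 7 of the 12 fits, without CON replicate 3, 4 or 6 or PEA replicate 2, 4, 5 or 6 (0.0535 to 0.0799).

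Other measures moved with the 10 genes. The cultures carried the markers of myotubes, with none of 11 at 0 in a library. Of these 11 markers, 4 were lower in PEA and none higher, where 623 of all 13142 genes tested were called lower and 829 higher. The summed level of the 11 markers was 5723 to 8871 CPM in CON and 5765 to 6835 in PEA. Of 5 markers of undifferentiated myoblasts, Id3 was lower and the other 4 did not pass (summed level 266 to 340 CPM in CON and 273 to 286 in PEA). Of 8 markers of cycling cells, 7 were higher in PEA, among them Top2a (log2 fold change 0.95, adjusted p = 0.000937 in edgeR) and Rrm2 (0.51, adjusted p = 0.000327 in edgeR). Their summed level was 476 to 677 CPM in CON, highest in CON replicate 2, and 740 to 853 in PEA, without overlap. In RNA of whole cultures, more cells of a type and more RNA per cell cannot be told apart, and the part of cycling cells in the rise of the 10 genes was not tested.

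The share of reads that aligned uniquely, as the study's alignment report lists it, also tended to be higher in PEA libraries, with overlap between the groups. With that share as a covariate, edgeR called none of the 10 genes, against 230 of all genes tested (1.75%) in either direction. The 8 kept their direction, with log2 fold changes from 0.19 for Psat1 to 0.39 for Aldh18a1, whose adjusted p of 0.0992 was the lowest of the 8 and that of Pycr1, 0.541, the highest. In that fit Aldh1l2 and Tyms were the wider pathway genes that passed (adjusted p = 0.0188 and 0.0304 in edgeR), and no regulator did.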

How the data were processed

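RNA-seq values came from C2C12 myotubes, 6 CON and 6 PEA libraries. The authors aligned reads to mm39 with STAR 4.4.1d, quantified Ensembl genes in Partek Flow and deposited estimated counts, and a second table with a signal, the same counts divided by 1 DESeq2 size factor per library (normalized counts). Whether counting used strand is not given in the sources used here. The 2 runs of PEA replicate 2 share 1 set of values and were 1 library. Genes with identifiers above the last in the tables were not analysed here.

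Estimated counts were rounded and tested in edgeR 4.0.16 (R 4.3.3; TMM factors 0.988 to 1.02, default filter, quasi-likelihood F test, Benjamini-Hochberg). The biological coefficient of variation was 0.106. SE is the log2 fold change divided by the root of F. Tests were tested on simulated data. Ratios added 0.5 to both counts. Some items of the lists and ratios tested are not reported here. DESeq2 1.42.0 and limma 3.58.1 served as alternatives. Positions are from GENCODE for GRCm39.

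Named genes were the 10 enzymes, listed pathway genes and regulators that passed, the ratio partners, Atf4, Myc, the 5 most alike genes and up to 3 markers a list. Pycr3 and Aldh1l1 were named in addition, after their values had been seen. The members and lists were chosen with earlier results of these data known.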

Additional observations from a re-analysis of the deposited data

Results flagged for a closer look

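CON replicate 2 lay far from the other CON libraries in 4 of the 14 sets of CON values examined (the 10 genes and 4 ratios), where chance flags about 1 set in 20. Its normalized count was 5292 for Psat1 (the other 5 CON libraries 4172 to 4517), 3697 for Shmt2 (2692 to 3021) and 2750 for Asns (1728 to 1963), and its ratio of Mthfd2 to Mthfd2l was 7.45 (3.02 to 3.91). In each case the gap to the nearest CON library exceeded Dixon's 95% critical share of the group's range. The deviations were upward, toward the PEA values, and the 4 values are not independent, since they come from 1 library. No PEA library was marked in the 14 sets of PEA values.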

How the results depend on the processing

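With all libraries kept, DESeq2, limma-voom, the deposited normalized counts in limma, median-of-ratios size factors, no filter, a minimum of 10 counts in each library, counts left unrounded and a length and GC trend removed each called 8 of the 10 enzymes, and libraries thinned to the smallest total called 7, without Pycr1 (adjusted p = 0.0965). The calls over all genes, in either direction, differed between these settings. DESeq2 called 1915 of 16382 genes, no filter 1323 of 16382 and limma-voom 1628 of 13142. The thinned libraries called 1182 of 13142, against 1452 of 13142 in the main fit. With the uniquely aligned share as a covariate 0 of the 10, 2 wider pathway genes and 0 regulators were called and the median log2 fold change of the 10 was 0.27; the cause was not tested. At an adjusted p below 0.01, 5 of the 10, 2 wider pathway genes and 0 regulators remained, by the construction of that rule. Of all 13142 genes tested, 405 passed at that threshold. Leaving out 1 library at a time gave 7 to 8 of the 10, medians of 0.42 to 0.60, 4 to 10 wider pathway genes, 1 to 4 regulators and 0 to 8 enzymes without overlap, the 8 being without CON replicate 2. Those fits test fewer libraries. The 3 ratios reported kept their direction and their side of the threshold under every alternative run. No value reversed its direction among called genes.

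Replicate numbers did not pair the libraries: correlations of same-numbered deviations ran from -0.083 to 0.065, and 0 of 12 libraries was best matched by its own number. A fit with the replicate number as a block called 8 of the 10, 8 wider pathway genes and 4 regulators. It called 1570 of all genes, against 1452 without the block. Sdsl lost its call in that fit (adjusted p = 0.0697 in edgeR). Under the block the ratios of Shmt2 to Shmt1, Mthfd1l to Mthfd1 and Mthfd2 to Mthfd2l had adjusted p of 0.0417, 0.469 and 0.0417 (exact sign-flip test). That test can give no p below 0.03125 before adjustment, and it pairs libraries by numbers that did not pair them.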
